A study of Homo sapiens with 9 samples.

Results

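The 47 genes described here encode enzymes and activator proteins of the lysosome. They were taken by name from a list of such genes, and all 47 symbols were matched to a gene ID among the 60880 of the count files. By role they were 15 proteases, 14 glycosidases, 5 sulfatases with their activating enzyme SUMF1, 8 lipid-degrading enzymes or lipid activators, and 4 other enzymes. HGSNAT, a membrane-bound acetyltransferase, and SUMF1, an enzyme of the endoplasmic reticulum, are on the list although neither is a soluble lysosomal hydrolase.

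SNU5, an established human gastric carcinoma line, was the source of the poly-A RNA. Cells of the NR group were given AuNR-PEG-Ab, a gold nanorod coupled through polyethylene glycol (PEG) to ramucirumab, a monoclonal antibody against VEGFR2. Cells of the SP group were given AuSP-PEG-Ab, the same antibody on a gold nanosphere, and cells of the Ab group were given ramucirumab alone. All 9 libraries, 3 in each group, came from cells held for 24 h with 8 μg/mL of antibody. That dose was common to all groups, and gold and PEG were common to NR and SP. In the paper's flow cytometry, at a lower dose and shorter time, cells took up more antibody with either particle than with free antibody. No library of untreated cells or of particles without antibody was analysed here. The effects of gold, of PEG and of antibody uptake therefore cannot be told apart. The paper names no batches of culture or sequencing for the RNA libraries, and its reporting summary states the same conditions for compared samples. The labels do not say whether the 3 libraries of a group came from separate cultures. The paper calls the replicates biological. Its reporting summary gives at least 3 independent repeats for all in vitro work, without naming the RNA libraries. The p-values measure only the spread between these libraries. Total counts were 25735410, 13863155 and 15943980 in NR1, NR2 and NR3, 21682836, 22914759 and 20601906 in SP1, SP2 and SP3, and 19566064, 26318227 and 21031024 in Ab1, Ab2 and Ab3. Among the 8 epithelial markers, KRT8, KRT18, ELF3, CLDN4 and CLDN7 had levels of at least 26.6 TPM in every group mean, EPCAM had 2.59 to 7.77 TPM, and KRT19 had at most 3 counts in any library.

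Lysosomal hydrolases are made in the endoplasmic reticulum, most are tagged with mannose 6-phosphate in the Golgi, and receptors for this tag carry them to the acidic lysosome. Many are made as inactive precursors, and cathepsins are cut to their active form on arrival. Proteases cleave proteins that reach the lysosome, glycosidases and sulfatases remove sugars and sulfate groups from glycans and glycolipids, and lipases and sphingolipid hydrolases split lipids, some of them only with a small activator protein. Material taken up by endocytosis or phagocytosis, particles included, is delivered to this compartment. The transcription factor TFEB and its relatives MITF and TFE3 are known to bind E-box sequences near the start of many lysosomal genes.

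The bases before the start of transcription are shown for members that differed from Ab by more than 2-fold and hold such an E-box, and for GAA. RefSeq promoters were found for 34 of the 47 members, and the 250 bases before each start were searched for CACGTG, which reads the same on both strands, and for a longer form, CACGTG with GT before and AC after it, which also reads the same on both strands. CACGTG was present in 9 of the 34 members (26.5%) and in 7.73% of the 27305 genes with a promoter. These members were CTSA, CTSD, CTSF, NAPSA, GAA, NEU1, GALNS, ARSB and SUMF1. The longer form was present in GAA and GALNS (5.88% of the 34) and in 0.374% of all genes. The stretches of CTSA (chr20:45891273-45891334, plus strand), CTSF (chr11:66568632-66568749, minus strand), SUMF1 (chr3:4467270-4467302, minus strand) and GAA (chr17:80101485-80101575, plus strand) are from RefSeq on GRCh38.p14, and capitals mark CACGTG. The first 3 are the members past 2-fold that hold it, and GAA is shown for its 2 copies of the longer form.
CTSA: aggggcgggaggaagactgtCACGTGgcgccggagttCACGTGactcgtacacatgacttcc
CTSF: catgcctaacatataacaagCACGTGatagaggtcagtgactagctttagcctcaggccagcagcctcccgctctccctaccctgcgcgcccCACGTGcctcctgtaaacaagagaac
SUMF1: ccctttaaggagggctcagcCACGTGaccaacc
GAA: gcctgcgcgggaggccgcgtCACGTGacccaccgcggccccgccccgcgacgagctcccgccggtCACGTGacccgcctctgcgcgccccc
A match describes these letters and does not show that a factor was bound. Of the 9 members, CTSA, CTSF and SUMF1 were more than 2-fold higher than Ab in both nanoparticle groups. GAA, GALNS and ARSB rose by less, CTSD did not rise, and NAPSA and NEU1 had too few counts for a test.

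Lysosomal enzymes were mostly higher in cells given the nanoparticles than in cells given the antibody alone. Each pair of groups was compared over all genes with edgeR's quasi-likelihood test and Benjamini-Hochberg adjustment, and a gene passed at an adjusted p of at most 0.05. Of the 42 members with enough counts for a test, NR had 33 above Ab and 4 below it, and SP had 34 above and 4 below. In the same fits, 36.4% of all genes tested were above Ab and 36.4% below in NR, and in SP 36.4% were above and 36.6% below. With a change of at least 2-fold, 16 members were higher in NR and 17 in SP (38.1% and 40.5% of those tested), while 12.4% and 12.6% of all genes tested were. Members lower by at least 2-fold were CTSK and IDUA in both groups (4.76% of those tested), against 10.3% of all genes in NR and 10.6% in SP. The median log2 fold change of the members was 0.70 in NR and 0.71 in SP, and that of all genes tested was -0.01 in each. Both comparisons use the same 3 Ab libraries. In bulk RNA, a change in the number of cells that express a gene and a change in RNA per cell cannot be told apart.

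**Figure D1:**
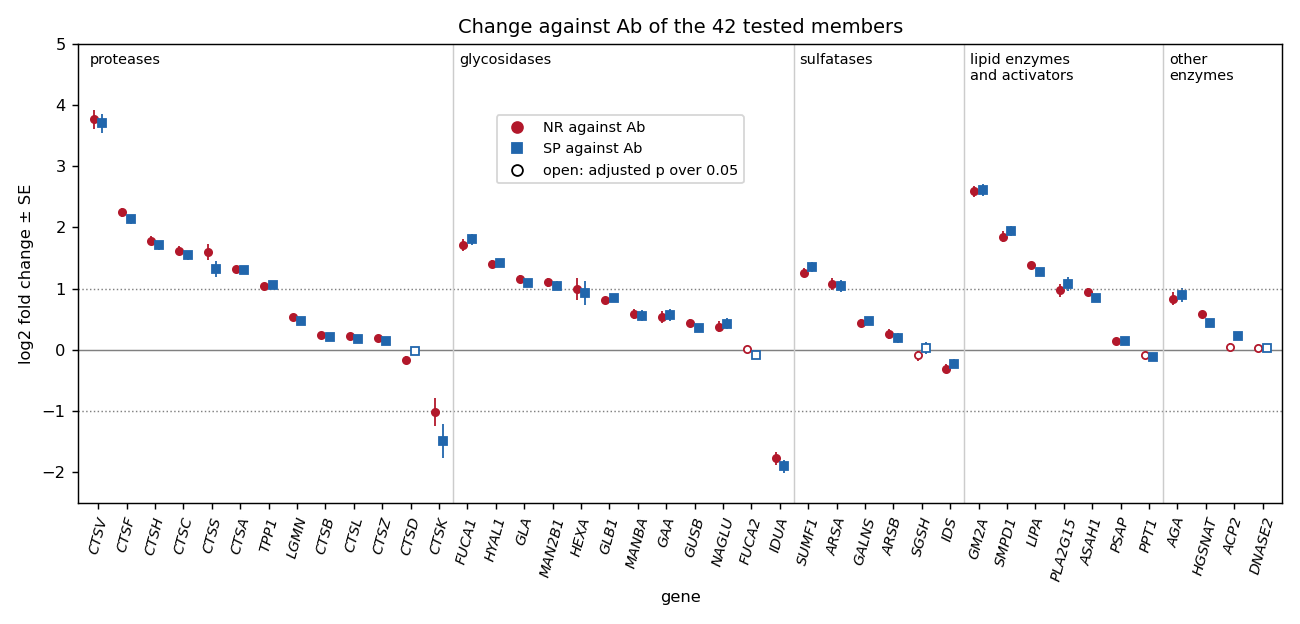
Log2 fold change against Ab (vertical axis) of the 42 tested members, ordered by class and by the change in NR. Red circles are NR and blue squares SP, bars are the SE from 3 libraries against 3, open symbols did not pass the adjusted p, and dotted lines mark 2-fold. In NR, CTSV stands highest at 3.77 and IDUA lowest at -1.78, and NR and SP lie close together for nearly every gene.

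Of the 9 tested cysteine cathepsins, the 3 most abundant rose little, 5 scarcer ones rose by more than 2-fold, and CTSK fell. Of all genes tested, 36.4% were higher in each comparison, and 12.4% (NR) and 12.6% (SP) by 2-fold. Those lower by 2-fold were 10.3% and 10.6%. Levels are given in TPM (counts divided by exon length and scaled to the same total in each library), which allows genes to be compared, and a gene is said to rise or fall by its log2 fold change against Ab. TPM ratios to Ab ran lower than the fitted log2 fold changes, which use TMM scaling, by a median of 0.10 over the members in NR and 0.08 in SP. The sign differed between these scales for FUCA2, ACP2 and DNASE2 in NR and for SGSH and DNASE2 in SP, and none of these had passed. Among the 10 cysteine cathepsins, CTSL, CTSB and CTSZ are broad endopeptidases or, for CTSZ, a carboxypeptidase, and they held most of the RNA. CTSL had 105, 109 and 105 TPM in Ab, 118, 115 and 115 in NR and 111, 115 and 114 in SP. It was above Ab in every NR and SP library, but by a log2 fold change of only 0.22 (SE 0.04) in NR and 0.17 (SE 0.05) in SP. CTSZ had 65.5, 63.3 and 64.9 TPM in Ab, 70.1, 68.04 and 69.1 in NR and 65.7, 68.4 and 68.7 in SP, with log2 fold changes of 0.197 and 0.15. For CTSB these were 0.24 and 0.22, from a mean of 61.4 TPM in Ab. CTSZ shares 31.7% of its exon bases with a neighbouring gene, NELFCD, so its counts are uncertain.

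CTSV (cathepsin V, the closest relative of cathepsin L; chromosome 9, 99791959 to 99918838, minus strand; this and the positions that follow are on GRCh37) was counted 22, 42 and 22 times in Ab, 476, 236 and 283 in NR and 355, 402 and 352 in SP. These were levels of 0.598, 0.8702 and 0.567 TPM in Ab, 9.05, 8.46 and 8.84 in NR and 8.19, 8.86 and 8.49 in SP. Every nanoparticle library was far above every Ab library, by a log2 fold change of 3.77 (SE 0.15) in NR (adjusted p = 1.73e-18 with edgeR) and 3.701 (SE 0.15) in SP (adjusted p = 4.03e-18). That is 13.6-fold in NR and 13.001-fold in SP, the largest rise among the members in both. CTSF (cathepsin F, a widely expressed endopeptidase; chromosome 11, 66330935 to 66336350, minus strand), whose E-boxes are printed above, had 10.7, 11.4 and 10.04 TPM in Ab, 46.2, 50.2 and 47.1 in NR and 42.6, 47.3 and 43.9 in SP. In log2 terms the change was 2.25 (SE 0.08) in NR and 2.13 (SE 0.08) in SP, and no library of either overlapped with Ab. The same absence of overlap, on counts divided by the library total, was found for all 18 members past 2-fold in both comparisons. It was also found for 74.6% of all genes tested in NR and 75.1% in SP.

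CTSH is an aminopeptidase, and CTSC (dipeptidyl peptidase I) trims and activates the granule proteases of immune cells. CTSH had 3.67, 3.66 and 3.62 TPM in Ab, 12.1, 11.4 and 11.6 in NR and 11.5, 11.6 and 10.7 in SP, a log2 fold change of 1.78 and 1.71. CTSC had 2.58, 2.77 and 2.61 TPM in Ab, 7.75, 7.44 and 7.705 in NR and 7.52, 6.96 and 7.52 in SP, a log2 fold change of 1.62 and 1.55. CTSS (cathepsin S), known for cleaving the invariant chain of MHC class II in antigen-presenting cells, had 2.604, 2.205 and 2.33 TPM in Ab, 6.09, 7.44 and 6.72 in NR and 5.21, 6.004 and 5.62 in SP. The rise in log2 terms was 1.598 (SE 0.13) and 1.33 (SE 0.13). For these 3 genes the lowest nanoparticle library was well above the highest Ab library.

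CTSK (cathepsin K, the collagen-degrading protease of osteoclasts; chromosome 1, 150767356 to 150782053, minus strand) went the other way. It had 52, 70 and 59 counts in Ab, 31, 22 and 22 in NR and 15, 36 and 13 in SP, or 1.23, 1.26 and 1.32 TPM, 0.511, 0.684 and 0.596 TPM and 0.3004, 0.688 and 0.272 TPM. All nanoparticle libraries were below all Ab libraries, with SP2 the highest of the SP libraries. The log2 fold change was -1.01 (SE 0.23) in NR and -1.49 (SE 0.28) in SP, and without NR1 that of NR was -0.91, short of 2-fold. CTSO had at most 4 counts in any library and was not tested.

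The makeup of the cysteine cathepsin RNA differed between the groups. Its summed level was 255, 254 and 253 TPM in Ab, 337, 337 and 333 in NR and 318, 331 and 329 in SP. CTSL, CTSB and CTSZ together held 91.6% ± 0.318 of it in Ab (SD, n = 3), 75.2% ± 0.575 in NR and 76.1% ± 0.688 in SP. The share of CTSF was 4.23% ± 0.260 in Ab, 14.2% ± 0.591 in NR and 13.7% ± 0.534 in SP. CTSL was 125 to 185 times as abundant as CTSV in Ab libraries and 12.9 to 13.6 times in NR and SP libraries.

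**Figure D2:**
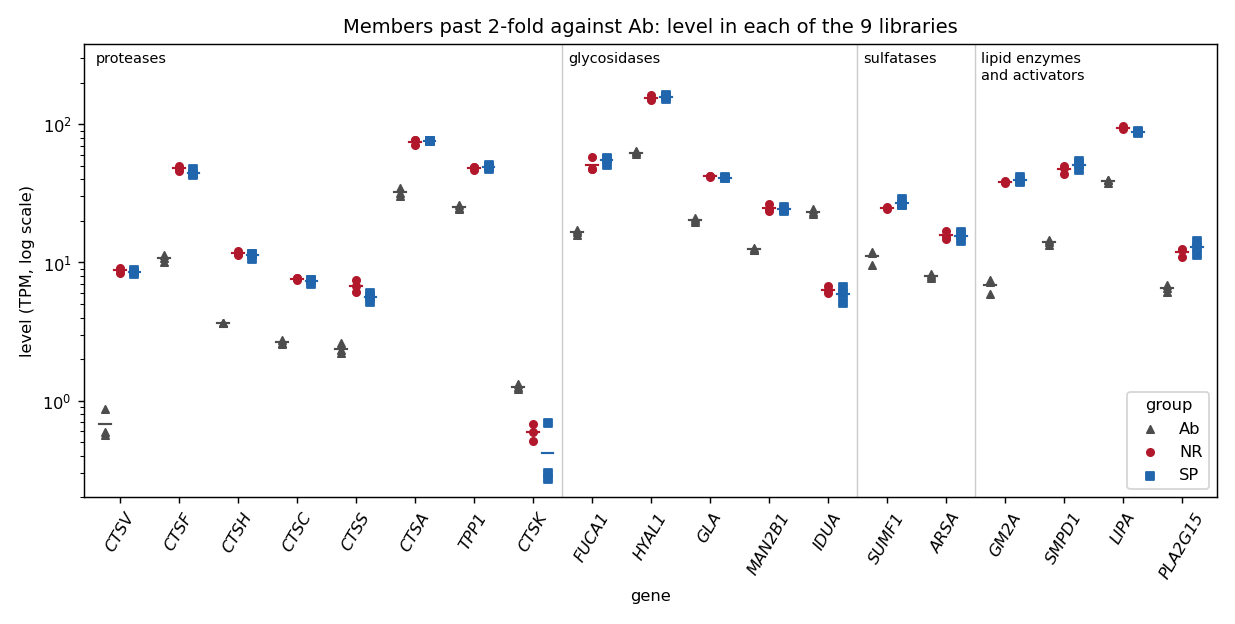
Level in TPM (log scale) in each of the 9 libraries of the 19 members past 2-fold against Ab in NR or SP, by class. Each symbol is a library and each short line the mean of 3; in every gene but CTSK and IDUA the NR and SP libraries lie above the Ab libraries, and in those 2 they lie below.

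The other proteases use a serine or aspartate, or cleave after asparagine. CTSA (cathepsin A, a serine carboxypeptidase that also protects beta-galactosidase and neuraminidase in a complex; chromosome 20, 44518783 to 44527588, plus strand) had 34.7, 30.3 and 31.7 TPM in Ab, 76.5, 76.8 and 70.8 in NR and 75.01, 75.9 and 75.1 in SP. It rose by a log2 fold change of 1.31 (SE 0.06) in NR and 1.31 (SE 0.06) in SP, though it overlaps other genes in 21.5% of its exon bases. TPP1, which removes tripeptides from the ends of small proteins, had 26.1, 24.3 and 24.96 TPM in Ab, 46.8, 48.8 and 49.2 in NR and 51.1, 47.5 and 48.9 in SP, a rise of just over 2-fold (1.04 and 1.05 in log2). LGMN (legumain, the asparaginyl endopeptidase) rose by 0.53 and 0.48 from a mean of 46.8 TPM in Ab. CTSD, the main aspartic protease, had 46.8, 44.97 and 47.5 TPM in Ab, 41.4, 40.04 and 34.6 in NR and 45.2, 41.7 and 43.1 in SP, with log2 fold changes of -0.16 (adjusted p = 0.03 with edgeR) and -0.02 (adjusted p = 0.813), so that it passed as lower in NR and did not pass in SP. The call in NR ended with DESeq2 and without NR3, Ab1 or Ab3 (log2 fold change -0.09 without NR3). On counts divided by the library total, the libraries of CTSD overlapped with Ab in both comparisons, while in TPM those of NR lay below Ab. Of its exon bases, 48.2% are shared. NAPSA, the napsin of lung and kidney, had at most 1 count in any library.

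Of the 15 proteases, 13 were tested, of which NR had 11 higher and 2 lower than Ab and SP had 11 and 1. Their median log2 fold change was 1.04 in NR and 1.05 in SP, and 7 rose by at least 2-fold in each. Of all genes tested, 36.4% were higher in each comparison, and 36.4% (NR) and 36.6% (SP) lower. Those higher by 2-fold were 12.4% and 12.6%.

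Glycosidases rose in most cases, and the largest fall among the members was in this class. HYAL1 (hyaluronidase, which cleaves hyaluronan; chromosome 3, 50337321 to 50349812, minus strand) had 63.96, 62.7 and 60.4 TPM in Ab, 151, 150.2 and 163 in NR and 153, 159 and 161 in SP. It rose by a log2 fold change of 1.41 (SE 0.05) in NR and 1.42 (SE 0.06) in SP. FUCA1, the lysosomal alpha-fucosidase (chromosome 1, 24171567 to 24194780, minus strand), had 16.6, 17.2 and 15.9 TPM in Ab, 47.5, 57.8 and 47.6 in NR and 56.97, 56.3 and 50.8 in SP, and rose by 1.71 (SE 0.10) and 1.805 (SE 0.09). Its relative FUCA2, a secreted fucosidase, was the most abundant glycosidase and had 196, 199 and 199 TPM in Ab, 184, 182 and 193 in NR and 162, 182 and 184 in SP. It did not pass in either comparison, with log2 fold changes of 0.01 (SE 0.05) and -0.09 (SE 0.05). Of this pair the scarcer rose more than 3-fold, and the more abundant showed no difference from Ab that passed.

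GLA (alpha-galactosidase A, which degrades globotriaosylceramide) had 21.01, 19.8 and 20.2 TPM in Ab, 42.5, 41.7 and 42.5 in NR and 40.8, 40.7 and 41.8 in SP, and log2 fold changes of 1.16 and 1.099. MAN2B1, an alpha-mannosidase of glycoprotein breakdown, had 12.6, 12.3 and 12.4 TPM in Ab, 24.5, 23.7 and 26.5 in NR and 23.6, 25.2 and 24.1 in SP, with 1.103 and 1.05. Neither gene's groups overlapped with Ab, and MAN2B1 overlaps other genes in 21.2% of its exon bases. IDUA (alpha-L-iduronidase, which acts on heparan and dermatan sulfate; chromosome 4, 980785 to 998352, plus strand) had 24.6, 23.1 and 22.3 TPM in Ab, 6.28, 6.02 and 6.72 in NR and 5.09, 5.93 and 6.66 in SP. In log2 terms the change was -1.78 (SE 0.10) in NR (adjusted p = 1.84e-15 with edgeR) and -1.902 (SE 0.11) in SP (adjusted p = 2.88e-15), a level 3.43-fold and 3.74-fold lower than in Ab. IDUA shares 13.2% of its exon bases with SLC26A1, and the counting is not stated to use strand, so its counts are uncertain.

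Of the remaining glycosidases, GLB1 (beta-galactosidase), MANBA (beta-mannosidase), GAA (acid alpha-glucosidase, which degrades glycogen), GUSB (beta-glucuronidase), NAGLU and HEXA (the alpha subunit of beta-hexosaminidase) all rose without reaching 2-fold, HEXA in NR just below it. In NR their log2 fold changes were 0.81, 0.58, 0.54, 0.45, 0.38 and 0.997, and in SP 0.85, 0.56, 0.57, 0.36, 0.42 and 0.93. HEXA was scarce, with 48, 73 and 43 counts in Ab, 118, 71 and 84 in NR and 105, 87 and 115 in SP. GUSB has pseudogene copies elsewhere in the genome that can take or lend reads. GALC, which degrades galactosylceramide, had 1 count in 1 library and 0 in the others. Of the 12 glycosidases tested, 10 were higher and 1 lower in each nanoparticle group, and the medians were 0.70 in NR and 0.71 in SP on the log2 scale. For comparison, 36.4% of all genes tested were higher in each fit, and 36.4% (NR) and 36.6% (SP) lower.

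NEU1 (neuraminidase; chromosome 6, 31825436 to 31830682, minus strand) and PPT2, a thioesterase of the lipid class (chromosome 6, 32121218 to 32131455, plus strand), were listed at 0 in all 9 libraries. Both lie in the major histocompatibility complex. From 1 Mb before NEU1 to 1 Mb after PPT2, 57 of 107 protein-coding genes (53.3%) were at 0 in every library, against 17.3% of all 19953 protein-coding genes. LSM2 and RNF5, which nearly all cells use, were at 0 there, and CSNK2B and CLIC1 had 11 and 4 counts over the 9 libraries together. The window and these 4 genes were chosen after their values were seen. The zeros of NEU1 and PPT2 are therefore not read as absence of expression.

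Of the sulfatases and their activating enzyme, SUMF1 and ARSA rose by more than 2-fold, GALNS and ARSB rose by less, and IDS fell. SUMF1 (chromosome 3, 3742498 to 4508957, minus strand) converts a cysteine of every sulfatase to formylglycine, without which they are inactive. It had 11.9, 11.8 and 9.54 TPM in Ab, 25.3, 24.7 and 24.5 in NR and 28.6, 25.9 and 25.9 in SP. In log2 terms the change was 1.26 (SE 0.08) in NR and 1.35 (SE 0.08) in SP. Of the sulfatases themselves, only ARSA (arylsulfatase A, which acts on sulfatide) passed 2-fold, with 7.71, 7.996 and 8.22 TPM in Ab, 15.6, 14.8 and 16.9 in NR and 16.7, 15.7 and 14.3 in SP and log2 fold changes of 1.08 and 1.05.

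GALNS, which removes sulfate from keratan sulfate, was the most abundant sulfatase. It had 26.5, 25.5 and 24.04 TPM in Ab, 31.9, 33.5 and 30.7 in NR and 33.3, 32.8 and 33.6 in SP, and rose by 0.44 and 0.47. ARSB, which acts on dermatan sulfate, rose by 0.26 and 0.199, and its call in SP ended with DESeq2 and without SP2, SP3, Ab2 or Ab3. IDS (iduronate 2-sulfatase) fell, by a log2 fold change of -0.31 in NR and -0.23 in SP, and without SP3 it no longer passed in SP (-0.17). It overlaps other gene models in 75.9% of its exon bases and it has a pseudogene copy nearby. SGSH (heparan N-sulfatase) did not pass, at -0.09 (adjusted p = 0.338 with edgeR) and 0.03 (adjusted p = 0.816). Over the 6 genes, SUMF1 included, 4 were higher and 1 lower in each group, with a median of 0.35 in NR and 0.34 in SP. The shares of all genes tested were 36.4% higher in each comparison, and 36.4% (NR) and 36.6% (SP) lower.

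In the lipid class, the activator of GM2 breakdown and acid sphingomyelinase rose most, and the most abundant member of all hardly moved. GM2A (the GM2 activator, which lifts ganglioside GM2 from the membrane for beta-hexosaminidase; chromosome 5, 150591711 to 150650001, plus strand) had 7.52, 5.95 and 7.21 TPM in Ab, 39.1, 38.4 and 37.7 in NR and 38.1, 41.6 and 38.97 in SP. In log2 terms the change was 2.59 (SE 0.09) in NR (adjusted p = 3.91e-20 with edgeR) and 2.61 (SE 0.09) in SP (adjusted p = 9.75e-20), or 6.02-fold and 6.12-fold. SMPD1 (acid sphingomyelinase, which splits sphingomyelin into ceramide and phosphocholine; chromosome 11, 6411670 to 6416228, plus strand) had 14.6, 13.96 and 13.4 TPM in Ab, 43.98, 48.1 and 49.5 in NR and 51.5, 53.8 and 46.7 in SP. It rose by 1.85 (SE 0.08) and 1.94 (SE 0.08). Neither gene shares exon bases with another, and no nanoparticle library overlapped with an Ab library in either.

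LIPA (lysosomal acid lipase, which releases cholesterol and fatty acids from the esters of lipoproteins; chromosome 10, 90973326 to 91174314, minus strand) had 37.6, 39.6 and 39.6 TPM in Ab, 93.03, 94.2 and 96.5 in NR and 89.8, 86.998 and 88.4 in SP. The rise in log2 terms was 1.38 (SE 0.05) and 1.27 (SE 0.06). PLA2G15, a lysosomal phospholipase, had 6.52, 6.09 and 6.86 TPM in Ab, 10.9, 12.4 and 12.5 in NR and 11.3, 12.9 and 14.3 in SP. It lay on the 2-fold line, below it in NR (0.97) and above it in SP (1.07), and its difference between NR and SP did not pass (log2 fold change -0.098, adjusted p = 0.732 with edgeR). ASAH1 (acid ceramidase) rose by 0.95 and 0.85.

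PSAP (prosaposin, the precursor of the saposins that help hydrolases reach sphingolipids) had 1935, 1792 and 1839.8 TPM in Ab, 1896, 1947 and 1897 in NR and 1906, 1982 and 1938 in SP. The log2 fold changes of PSAP passed but were small, 0.14 (SE 0.04) and 0.15 (SE 0.04), and in TPM the highest Ab library lay within the range of NR and SP. PSAP alone made up 55.5% ± 0.821 of the summed level of all 47 members in Ab (SD, n = 3), 49.2% ± 0.348 in NR and 49.6% ± 0.106 in SP. PPT1 (palmitoyl-protein thioesterase) was next in level with 272, 279 and 274 TPM in Ab, 247, 236 and 242 in NR and 244, 242 and 236 in SP. It was lower than Ab in TPM in every nanoparticle library, and passed in SP (log2 fold change -0.11, adjusted p = 0.0256 with edgeR) and not in NR (-0.09, adjusted p = 0.072), and leaving out SP2, SP3, Ab2 or Ab3 ended the call in SP. Of the 7 members tested in this class, 6 were higher in each group, 3 of them by 2-fold in NR and 4 in SP, and the medians were 0.97 and 1.07. In the same fits 36.4% of all genes tested were higher in each comparison, and 12.4% (NR) and 12.6% (SP) by 2-fold.

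Of the other enzymes, AGA (aspartylglucosaminidase, which cuts the link between sugar and asparagine) had 12.4, 13.3 and 16.5 TPM in Ab, 23.97, 22.5 and 23.8 in NR and 21.9, 26.4 and 25.8 in SP, and rose by 0.84 and 0.89. HGSNAT, which acetylates heparan sulfate, had 26.7, 25.1 and 24.2 TPM in Ab, 34.1, 34.1 and 37.7 in NR and 29.9, 34.1 and 32.8 in SP, and rose by 0.58 and 0.43. DNASE2, the acid endonuclease, had 65.5, 60.05 and 64.3 TPM in Ab, 60.3, 60.04 and 60.1 in NR and 60.8, 61.6 and 60.1 in SP. It passed in neither comparison, at 0.03 and 0.03. ACP2 (acid phosphatase) passed in SP (0.22) and not in NR (0.05), from 57.04, 52.1 and 53.7 TPM in Ab, 50.4, 53.5 and 53.4 in NR and 61.7, 60.6 and 56.8 in SP.

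The members were also grouped by the material they degrade. These groups were formed from general knowledge of the enzymes, and some genes are in more than 1. Of the 10 members of sphingolipid degradation (SMPD1, ASAH1, GM2A, PSAP, GLA, GLB1, GALC, HEXA, ARSA and NEU1), all 8 that were tested were higher in both NR and SP, and 4 of them by 2-fold. Their log2 medians were 1.04 (NR) and 0.99 (SP). Over all genes tested, 36.4% were higher in each comparison, and 12.4% (NR) and 12.6% (SP) by 2-fold. All 6 tested members of N-glycan breakdown (AGA, FUCA1, MAN2B1, MANBA, GLB1 and HEXA, with NEU1 not tested) were higher in both, against the same 36.4% of all genes. Their medians were 0.92 and 0.91. Of the 7 members that degrade heparan or dermatan sulfate (IDS, IDUA, SGSH, HGSNAT, NAGLU, GUSB and ARSB), 4 were higher and 2 lower in each group, and the medians were 0.26 and 0.20. With 36.4% of all genes tested lower in NR and 36.6% in SP, nothing is read from the 2 lower calls about these enzymes. The calls of IDS and ARSB in SP among these are the ones that ended without SP3. The difference between these groups of genes was not tested.

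The summed level of all 47 members was 3435, 3276 and 3316 TPM in Ab, 3852, 3934 and 3886 in NR and 3847, 3985 and 3912 in SP. The mean was thus 1.16 times that of Ab in NR and 1.17 times in SP. Without PSAP the sums were 1487 ± 11.9 TPM in Ab (SD, n = 3), 1977 ± 18.0 in NR and 1973 ± 30.9 in SP, or 1.33 times Ab in each.

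**Figure D3:**
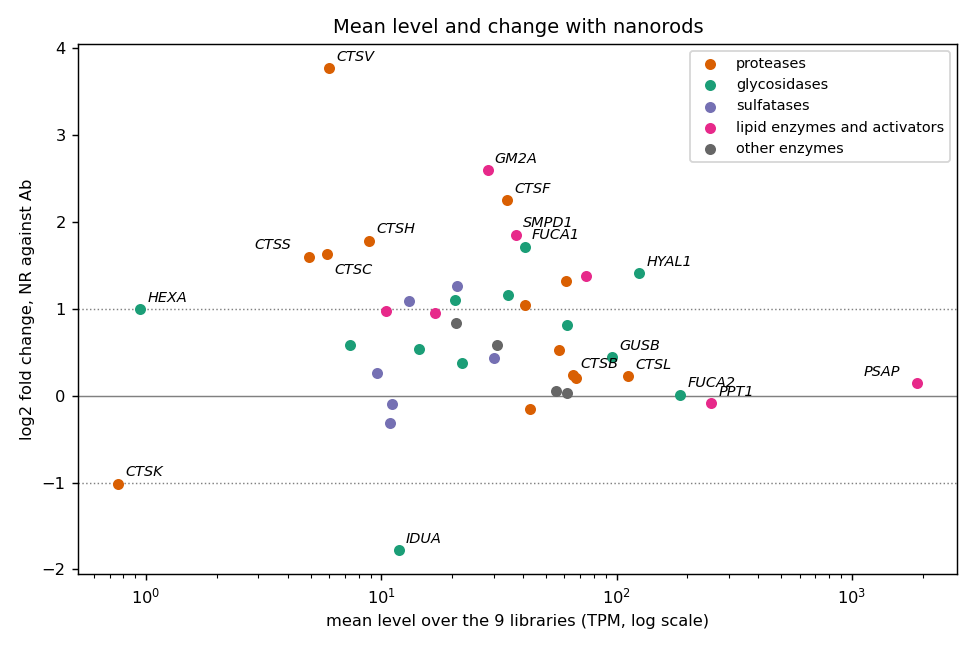
Mean level over the 9 libraries (horizontal axis, TPM, log scale) and log2 fold change of NR against Ab (vertical axis) of the 42 tested members, coloured by class; dotted lines mark 2-fold. PSAP at the far right lies near 0, at 0.14, and CTSV, GM2A and CTSF are the 3 largest rises.

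Nanorods were compared with nanospheres directly, the comparison in which the antibody is the same and the particle differs. The paper's rods and spheres differ in dimensions, supplier and surface charge as well as shape. The effect of shape alone therefore cannot be told apart. Of the 42 members, 0 passed with edgeR's quasi-likelihood test and Benjamini-Hochberg adjustment over all genes, and 0 with DESeq2, where 0.443% of all genes tested passed with edgeR. At an unadjusted p under 0.05 there were 7 members (16.7%), against 12.9% of all genes. The 3 with the smallest p-values were ACP2, HGSNAT and LIPA, with log2 fold changes of -0.17 (SE 0.05), 0.15 (SE 0.05) and 0.12 (SE 0.04) and adjusted p of 0.148, 0.214 and 0.22 with edgeR. ACP2 was higher in SP, and the libraries of NR and SP did not overlap (values above). HGSNAT was higher in NR, where its lowest library was just above the highest of SP. The groups were separate in 6 members, while they were in 18.1% of all genes tested.

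The 95% interval of the difference between NR and SP lay within 1.5-fold in either direction for 41 of the 42 members. The exception was CTSK, the scarcest of those that fell, with an interval of -0.21 to 1.18 in log2. For CTSV it was -0.10 to 0.24, for GM2A -0.14 to 0.10, for SMPD1 -0.22 to 0.04 and for PSAP -0.07 to 0.07. CTSS, which was 1.598 above Ab in NR and 1.33 in SP, had an interval of 0.05 to 0.49, but its adjusted p was 0.26 with edgeR. By class, the median log2 fold change of NR against SP was 0.06 in proteases, 0.04 in glycosidases, -0.06 in sulfatases and SUMF1, -0.0023 in the lipid class and -0.02 in the other enzymes.

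**Figure D4:**
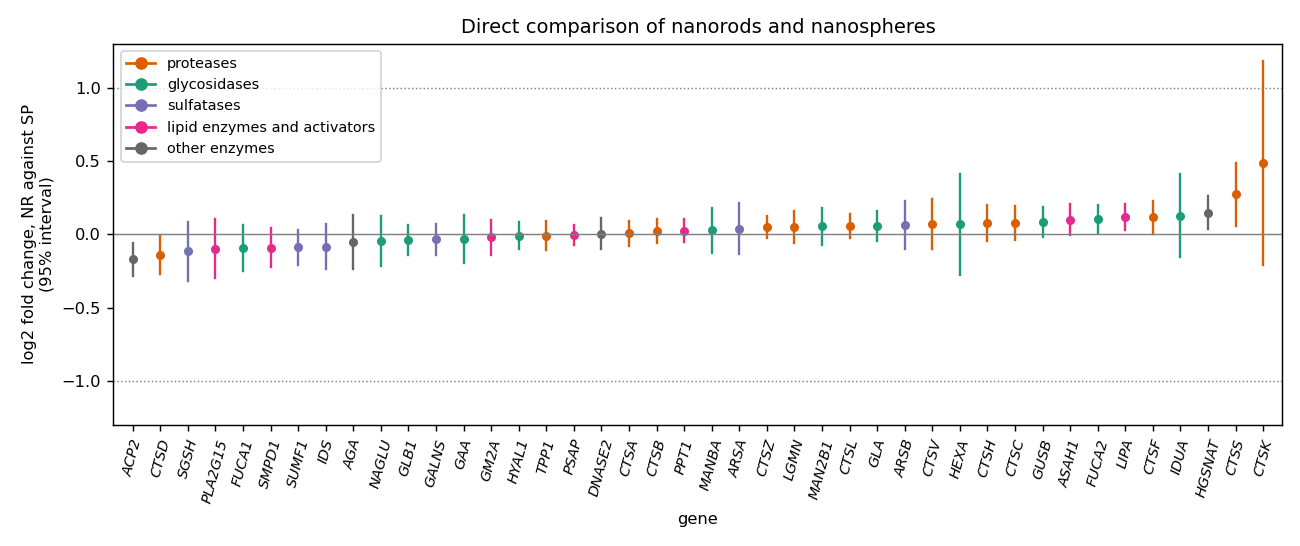
Log2 fold change of NR against SP with its 95% interval (vertical axis) for the 42 tested members, ordered by the change and coloured by class; dotted lines mark 2-fold. Most intervals include 0, none of the genes passed the adjusted p, and only the interval of CTSK reaches past 2-fold.

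Other genes of the lysosome were read from 5 further lists, in the same fits. Of 30 other soluble hydrolases and related proteins, 22 were tested, of which NR had 19 higher and 2 lower than Ab and SP had 19 and 1, with 12 higher by 2-fold in each and medians of 1.04 and 1.06. The shares of all genes tested were 36.4% higher in each comparison, 36.4% lower in NR and 36.6% in SP, and 12.4% and 12.6% higher by 2-fold. NPC2, which carries cholesterol out of the lysosome, had a mean of 24.4 ± 1.204 TPM in Ab (SD, n = 3), 122 ± 6.997 in NR and 116 ± 7.31 in SP. SIAE (a sialic acid esterase) and PLD3 (an exonuclease) rose by 2.43 and 1.21 in NR and by 2.54 and 1.19 in SP. SIAE shares 42.4% and PLD3 21.4% of its exon bases with other genes.

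Of 15 tested genes that tag and sort the hydrolases, NR had 10 higher and 5 lower than Ab and SP had 9 and 5, with 2 past 2-fold in each, AP1S1 (1.61 and 1.59), a subunit of the clathrin adaptor AP-1, and SORL1 (2.53 and 2.79), a sorting receptor. Of all genes tested, 36.4% were higher in each comparison. The shares of the list lower and past 2-fold were near those of all genes tested, so nothing is read from these shares about the list. Those of all genes were 36.4% lower and 12.4% higher by 2-fold in NR, and 36.6% and 12.6% in SP. GNPTAB, which starts the mannose 6-phosphate tag, rose by 0.82 and 0.89. Of the receptors for the tag, M6PR rose by 0.45 and 0.51 and IGF2R fell, with -0.54 and -0.44. These 3 genes were chosen after their values were seen.

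Of 14 genes for inhibitors of cathepsins, 5 were tested in NR against Ab, with 3 higher (CST3, CSTB and CST2) and 2 lower (SERPINB1 and SERPINB6), and 4 in SP against Ab, with 2 higher (CST3 and CSTB) and 1 lower (SERPINB6). Among all genes tested, 36.4% were higher in each comparison, and 36.4% (NR) and 36.6% (SP) lower. With so few genes tested, nothing is read from these counts about the list. CST3 (cystatin C, the secreted inhibitor of cysteine cathepsins), singled out after its values were seen, had 100.2, 94.8 and 94.3 TPM in Ab, 199, 186 and 196 in NR and 175, 179 and 187 in SP. It rose by 1.11 (SE 0.05) in NR and 0.99 (SE 0.05) in SP. It had the highest mean of the list in NR and SP, while in Ab that was SERPINB1 with 129 TPM. CSTB rose by 0.28 in NR and 0.15 in SP.

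Of 14 tested genes of the TFEB family and the Rag GTPase system that controls it, 8 were higher and 5 lower in each group. Of all genes tested, 36.4% were higher in each comparison. The share of the list that was lower was again near that of all genes (36.4% in NR and 36.6% in SP). The genes of this list past 2-fold were FLCN and RRAGC, both of which keep TFEB out of the nucleus in fed cells. Their share was also near that of all genes lower by 2-fold (10.3% and 10.6%). FLCN fell, with log2 fold changes of -1.46 in NR and -1.36 in SP, and RRAGC with -1.08 and -1.12. Of the transcription factors, TFEB rose by 0.58 and 0.701, MITF by 0.96 and 0.98, and TFE3, the most abundant of them, fell by a log2 fold change of -0.69 and -0.67. Of 20 tested lysosomal membrane proteins, NR had 13 higher and 5 lower than Ab and SP had 12 and 5, with 4 higher by 2-fold (LAPTM4B, SIDT2, SLC17A5 and TMEM175). Among all genes tested, 36.4% were higher in each comparison, 36.4% (NR) and 36.6% (SP) lower, and 12.4% and 12.6% higher by 2-fold. The median log2 fold change of this list was 0.31 in NR and 0.38 in SP.

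**Figure D5:**
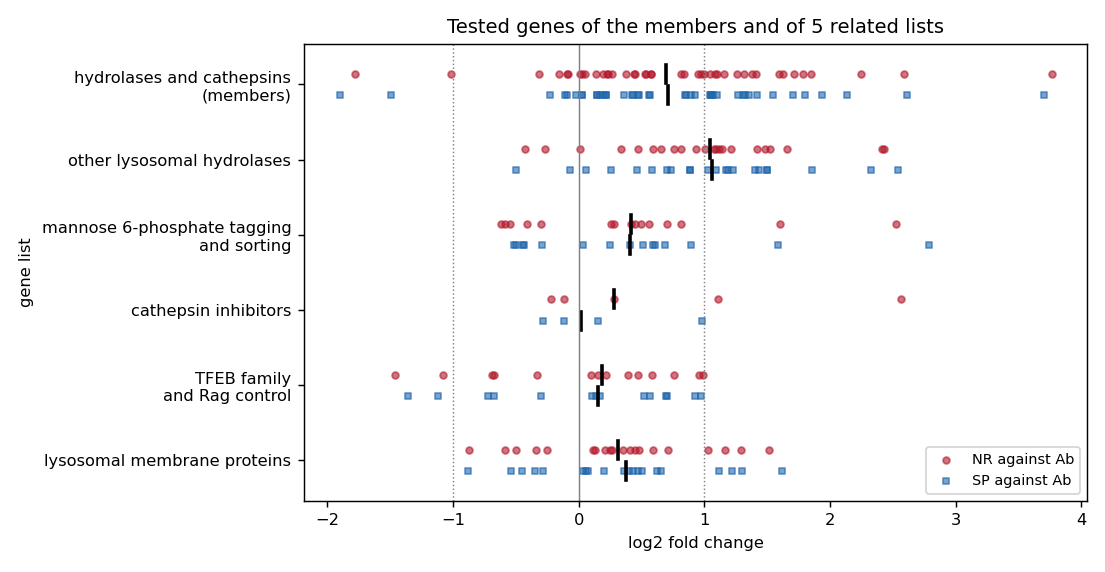
Log2 fold change against Ab (horizontal axis) of each tested gene of the members and of 5 related lists; red circles are NR, blue squares SP, black bars the median of the list, and dotted lines 2-fold. The medians of the members (0.70 and 0.71) and of the other hydrolases (1.04 and 1.06) lie above those of the sorting, inhibitor, TFEB and membrane lists.

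Markers of other cell types and measures of RNA were read in the same libraries, since macrophages and fibroblasts also express cathepsins. The summed level of the 8 epithelial markers was 874, 837 and 847 TPM in Ab, 1597, 1605 and 1629.6 in NR, and 1703, 1644 and 1638 in SP, with KRT8 the most abundant. Of 15 leukocyte and macrophage markers, 10 had at most 3 counts in every library, and CD163, AIF1, C1QA and LYZ were at 0. AIF1 lies in the region of chromosome 6 described above. Their summed level was 4.198, 2.82 and 2.32 TPM in Ab, 5.64, 7.48 and 6.47 in NR, and 7.74, 6.73 and 6.59 in SP. Of 10 fibroblast and endothelial markers, 9 were matched and 8 tested, and 5 were higher by 2-fold in both groups (LUM, DCN, PDGFRB, CDH5 and VWF), while COL1A1, COL1A2 and COL3A1 did not pass. The share of all genes tested that were higher by 2-fold was 12.4% in NR and 12.6% in SP. LUM was 39.5-fold higher than in Ab in NR and 40.7-fold in SP, and DCN 35.2-fold and 37.5-fold. PDGFRB was 25.2-fold and 27.6-fold higher, and CDH5 5.09-fold in each. VWF had 0, 0 and 1 counts in Ab, so no fold is given for it. The summed level of the fibroblast and endothelial markers was 22.7, 21.8 and 12.1 TPM in Ab, 93.4, 92.1 and 89.9 in NR, and 93.6, 99.5 and 98.6 in SP, and LUM was the most abundant. The share of counts on mitochondrial genes was 3.41% to 3.71% in Ab, against 4.36% to 4.59% with nanorods and 4.396% to 4.66% with nanospheres. The part of these differences in the results was not tested.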

How the data were processed

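The authors deposited raw read counts per gene, as whole numbers, in 1 file for each of the 3 groups with a column for each library. The submitters' processing notes name HISAT2 2.1.0 and DESeq2 1.16.1. Human Ensembl gene IDs were used, and the sources differ on the build (mm9 in the labels, hg19 in the study's reporting summary). The counting tool is named differently in the sources, and strand use was not given in the sources used here. Of 60880 IDs, 59858 were in GENCODE release 44 on GRCh37, which gave exon lengths, positions and shared exon bases; 1022 were not, with at most 0.115% of the counts of a library.

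Each pair of groups was fitted on its 6 libraries with edgeR 4.0.16, by the robust quasi-likelihood test with TMM scaling. Genes were kept by filterByExpr with a minimum of 10 counts and a total of 15, and Benjamini-Hochberg adjustment was over all genes. TMM factors computed over all 9 libraries, apart from those of the pair fits, were 0.982 to 1.013. The fit was tested on simulated data. Alternatives were DESeq2 1.42.0, RLE scaling, other count filters, 1 fit of all libraries, a test against 2-fold, a replicate block, leaving out each library, and transcript length. Named members were those past 2-fold, the 2 most abundant and the smallest p-values of each class, and the 3 smallest p-values of NR against SP. From each further list, up to 4 genes past 2-fold in both comparisons were named, and some genes that these rules pick are not reported here. The members and lists were chosen with earlier results of these data known. Python 3.11.15 was used for tables. Libraries of a group differed by more than sampling noise (chi-square per gene 1.84 to 7.43). The precision of a level is set by its counts, since 3 counts correspond to 0.114 to 0.216 CPM.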

Additional observations from a re-analysis of the deposited data

How the results depend on the processing

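Of 156 recomputed counts of members, 150 stayed within 1.5 times the reported count. The number of members lower by 2-fold in NR than in Ab was 2, and 1 with the replicate block and with a test against 2-fold (glmTreat), and ranged from 1 to 2 when each library was left out, being 1 without NR1 and without Ab3. The member lost with the block and without those libraries was CTSK, at the 2-fold line. In SP against Ab that number was 1 with glmTreat in place of 2. The number lower in SP than in Ab was 4, and ranged from 2 to 4 when each library was left out, being 2 without SP3, where PPT1 and IDS no longer passed. For the 29 named members, 1028 of 1036 fits kept the direction and the side of the threshold and 0 reversed. The other 8 were all PPT1: 5 no longer passed in SP (no count filter, or without SP2, SP3, Ab2 or Ab3) and 3 passed in NR (a minimum of 10 counts in every library, or without NR1 or Ab1). Among the other members, the calls against Ab that ended were those of CTSD in NR, and of ARSB and IDS in SP, as given above. Same-numbered libraries did not deviate together (correlations of -0.032 to 0.028), so the numbers are not read as pairs, and the replicate block gave 17 members higher by 2-fold in NR, against 16. Among the 20 tested members with no shared exon base, an alternative chosen after seeing the data, 90% were higher and 5% lower in NR. Levels moved by 0.741 to 2.43 times with the length of the longest transcript. Depth limits CTSO, NAPSA, GALC, CTSK and HEXA most.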
